A study of Mus musculus with 768 samples.

Results

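Ctse, the gene for cathepsin E, was followed in single NK cells that had infiltrated tumors of WT or PD-1-/- mice. It was 1 of 24490 gene entries and was selected because its measured values differed between the genotypes, so the difference between WT and PD-1-/- cells is described here and was not tested. The cells came from C57BL/6 mice carrying MTAP1A, a fibrosarcoma of Tap1-deficient origin, and all recipients were male. PD-1-/- mice lack PD-1 protein through a deletion within Pdcd1 in every cell. Viable NK cells (gated at the surface as NK1.1+, CD3- and GR1-, among other markers) filled 2 plates of 16 rows and 24 columns, the tumors of 3 WT mice going onto one plate and those of 3 PD-1-/- mice onto the other. Each genotype was therefore 1 pool on 1 plate, the mouse of origin of a cell was unknown, and genotype, plate and pool cannot be told apart. Of 768 wells, 726 had between 1000 and 3500 genes above 0 and were kept, 360 from WT and the others from PD-1-/- mice.

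Cathepsin E is an aspartic protease of endosomes and related compartments. It is known from the stomach lining, erythroid cells and immune cells, where it has been linked to the processing of antigens for MHC class II. Most other cathepsins are cysteine proteases, such as Ctsb, Ctsl and Ctss, while Ctsd, the major lysosomal aspartic protease, is the closest relative of Ctse in the family.

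The active site of such an enzyme is built from a pair of aspartates, each in an Asp-Thr-Gly motif. The coding sequence around both motifs is shown for Ctse and Ctsd because reads of such relatives can be confused where their sequences coincide. Capitals mark the codons of Asp-Thr-Gly in GENCODE vM21 transcripts (GRCm38), read 5′ to 3′:
Ctse, first motif: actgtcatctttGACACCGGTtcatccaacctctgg
Ctse, second motif: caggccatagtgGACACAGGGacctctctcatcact
Ctsd, first motif: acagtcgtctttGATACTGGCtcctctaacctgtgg
Ctsd, second motif: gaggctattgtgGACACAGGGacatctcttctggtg
Around these motifs the sequences were alike but not the same. The whole coding sequences, of 397 codons in Ctse and 410 in Ctsd, were identical at 61.3% of 1171 aligned bases, and the longest identical stretch had 14 bases. Of the 2087 words of 40 bases in the Ctse transcript, 0 occurred in a transcript of another gene. In that annotation Ctse lies at chr1:131638306-131675505 on the plus strand, has 10 exons and overlaps 0 other genes. The build behind the deposited values is not known, since the labels name both mm9 and mm10.

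The NK receptor genes Klrb1c (NK1.1) and Ncr1 (NKp46) gave reads in 96.1% and 90.8% of WT and 96.99% and 91.8% of PD-1-/- cells, so both plates carried the transcripts that define the sorted cells. The number of reads behind the values was recovered from their step size, and the median cell had 337718 reads in WT and 366490 in PD-1-/-, with a range of 1469 to 612719. Pdcd1 itself gave reads in 9 WT and 47 PD-1-/- cells, 2.50% and 12.8%, while its mean over all cells was 14.4 RPKM in WT and 13.9 RPKM in PD-1-/-. One RPKM value per gene does not separate the deleted exons from the remaining ones, so Pdcd1 does not check the genotype labels. Intervals given below are 95% intervals over cells. They cover counting error alone and not the difference between mice, pools or plates.

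Ctse was detected in 140 of 360 WT cells, 38.9% (exact interval 33.8% to 44.1%). In PD-1-/- the share was 57.9% (52.7% to 63.04%). Levels are given in RPKM, reads scaled to transcript length and to the reads mapped in the cell. Over all cells the lowest value was 0 RPKM in both genotypes. The median was 0 RPKM in WT and 33.5 RPKM in PD-1-/- cells, and the highest single cells reached 1346 and 1496 RPKM. The mean over cells was 57.4 RPKM in WT and 269.3 RPKM in PD-1-/-, a log2 ratio of 2.21 with 1 RPKM added to both means, or 4.69-fold without it. The genotypes overlapped fully in range and differed in how their cells were spread over it.

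Among the cells with a value above 0 the separation was wider than in the share of positive cells. The median detected level was 23.5 RPKM in WT and 412 RPKM in PD-1-/-, 17.6-fold apart. WT cells fell into a low and a high group, with 53 cells at 10 to 50 RPKM, 5 at 50 to 100, 7 at 100 to 200 and 40 at 200 RPKM or above. PD-1-/- cells held 12, 6, 14 and 160 cells in the same ranges, so that most of their positive cells were in the high group. The sparsest stretch of the WT values lay close to 100 RPKM, and this value was taken after the distribution had been seen to divide low from high cells.

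**Figure D1:**
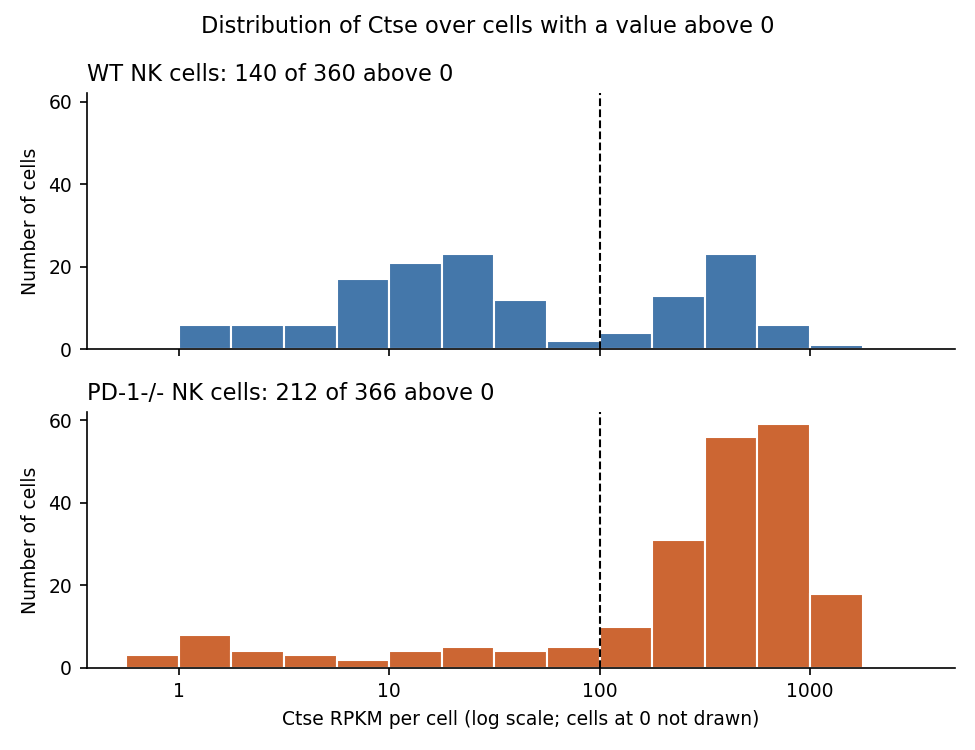
Number of cells (y axis) by Ctse RPKM on a log scale (x axis) for WT cells above and PD-1-/- cells below, with a dashed line at 100 RPKM and cells at 0 left out. WT values form a low and a high hump, with 93 cells under the line and 47 at or above it. PD-1-/- values form a tall hump above the line, with 47.5% of all cells at or above it. The 38 PD-1-/- cells under the line are spread thinly over the low values.

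High cells, at 100 RPKM or more, made up 13.1% of WT cells (47 cells, 9.75% to 16.98%) and 47.5% of PD-1-/- cells (42.3% to 52.8%). Low cells, above 0 and under 100 RPKM, went the other way, at 25.8% of WT cells (93 cells) and 10.4% of PD-1-/- cells (38 cells). Within the high cells the genotypes were closer, with medians of 368.3 RPKM in WT and 500 RPKM in PD-1-/-, a log2 ratio of 0.44. The means of the high cells were 405.3 and 562.1 RPKM, and 1 WT and 18 PD-1-/- cells exceeded 1000 RPKM. Both classes are cut on Ctse itself, which narrows differences in level within them. Within the low cells the medians were 13.1 RPKM in WT and 8.58 RPKM in PD-1-/-. The larger mean of PD-1-/- cells went mainly with more high cells, whose level was also somewhat higher. High cells carried 92.2% of the summed Ctse RPKM of WT cells and 99.2% of that of PD-1-/- cells.

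The low level was seen as several reads in most cells that had it. Low WT cells held a median of 9 recovered Ctse reads and low PD-1-/- cells a median of 5, while high WT cells held a median of 250 reads. Counting only cells with at least 2 reads left 36.4% of WT and 54.1% of PD-1-/- cells positive. Sequencing depth differed little between the plates, and the share of high cells was larger in PD-1-/- at every depth. Each plate was divided by depth into 3 groups of equal size, 120 cells each in WT. In the shallowest, 11.7% of WT and 45.1% of PD-1-/- cells were high. The corresponding shares were 13.3% and 41.8% in cells of middle depth and 14.2% and 55.7% in the deepest cells.

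Placed among the 7066 genes that reached 10% of cells in WT or PD-1-/-, the log2 ratio of Ctse ranked 2nd. Only Ccna2, a cyclin of dividing cells, had a larger one, 2.24, from means of 0.50 and 6.08 RPKM. In all, 46 genes, or 0.651%, were at least 2-fold higher in PD-1-/- and 33 genes, or 0.467%, at least 2-fold lower. The gain of 34.5 percentage points in the share of high cells was the largest of all 7066 genes, whose median was -0.005 points. The gain in the share of positive cells, 19.03 points, ranked 2nd. Of 3748 genes that reached 20% of cells on both plates, 6 genes, or 0.16%, differed at least 4-fold in median detected level, and Ctse differed most, with a log2 ratio of 4.13. These ranks rest on the contrast by which Ctse was chosen and describe it without supporting it.

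The difference was spread over both plates. Across the 16 plate rows, high cells made up 0% to 29.2% of WT cells, with a median over rows of 13.7%, and 31.8% to 69.6% of PD-1-/- cells, with a median of 45.8%. The share was higher on the PD-1-/- plate in 16 of 16 rows, and the mean level, 2.65 to 136.6 RPKM in WT rows and 168.1 to 479 RPKM in PD-1-/- rows, did not overlap. The share of cells above 0 was higher in 15 of 16 rows, the exception being row C with 62.5% of WT and 60.9% of PD-1-/- cells. Across the 24 plate columns the share of high cells was higher in PD-1-/- in 23 and the mean level in 24. Rows of 1 plate share its pool and its library preparation and are not replicates of a genotype.

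Rows also differed within a plate. WT rows I, N and O held 0 high cells among 24, 23 and 24 cells (exact upper limits 14.2% to 14.8%), while WT row F held 7 of 24. In PD-1-/- the extremes were row A, with 16 high cells of 23, and row O, with 7 of 22. The upper plate block, rows A to H, had a log2 ratio of 1.84, and the lower block, rows I to P, one of 2.68. The WT means of these blocks were 73.03 and 42.1 RPKM, and the PD-1-/- means, 263.2 and 275.5 RPKM, were closer to each other.

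**Figure D2:**
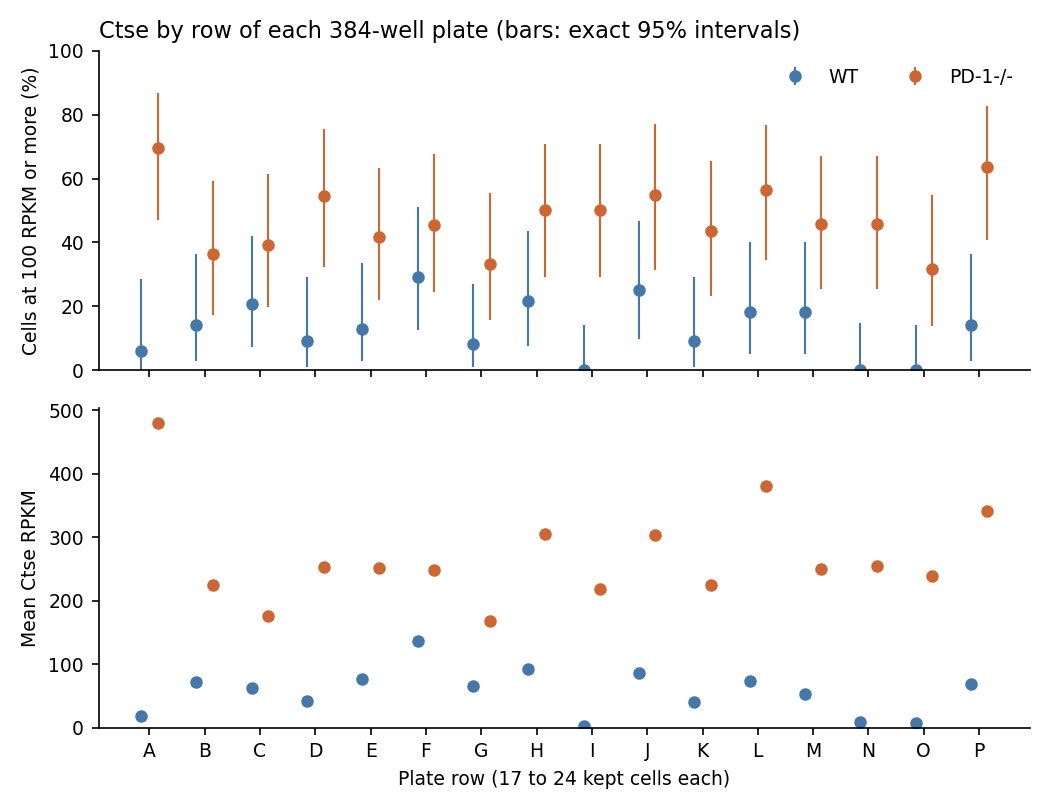
Share of cells at 100 Ctse RPKM or more in percent (upper panel, bars are exact 95% intervals) and mean Ctse RPKM (lower panel) by plate row A to P, with WT in blue and PD-1-/- in orange. PD-1-/- lies above WT in all 16 rows in both panels, from 31.8% to 69.6% against 0% to 29.2% of cells, and many intervals of single rows overlap.

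Ctse was then compared between cells with and without a read of Cxcr6, a chemokine receptor of tissue-resident lymphocytes. Cxcr6 was itself detected in 28 WT and 77 PD-1-/- cells. In PD-1-/- cells Ctse was above 0 in 50 of 77 Cxcr6+ cells (64.9%) and in 56.1% of Cxcr6- cells, a difference of 8.88 points with a Newcombe interval of -3.59 to 20.2. High cells made up 57.1% of Cxcr6+ and 44.98% of Cxcr6- PD-1-/- cells, 12.2 points apart (-0.376 to 24.03). In WT cells Ctse was above 0 in 12 of 28 Cxcr6+ cells (42.9%) and in 38.6% of Cxcr6- cells, and high in 10.7% and 13.3%. The WT differences were 4.30 points (-12.9 to 23.1) and -2.54 points (-10.6 to 14.3). All 4 intervals included 0, so a relation of Ctse to Cxcr6 was not detectable with these cells, and those in PD-1-/- reached past 20 points.

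Cd3g encodes a chain of the CD3 complex that T cells carry at the surface. Ctse was above 0 in 17 of 42 Cd3g+ WT cells (40.5%) against 38.7% of Cd3g- cells, and in 36 of 58 Cd3g+ PD-1-/- cells (62.1%) against 57.1%. The differences were 1.80 points (-12.7 to 17.7) and 4.93 points (-9.03 to 17.6). High cells were 7.14% and 13.8% of Cd3g+ and Cd3g- WT cells, and 44.8% and 48.1% of the corresponding PD-1-/- cells. Cd3d, Cd3e and Cd3g, the T cell markers found in at least 10% of cells, had log2 ratios between genotypes of 0.30 to 0.92, and Themis was found in 0 WT cells and 1 PD-1-/- cell. Any of 10 T cell markers was found in 14.9% of high and 23.3% of other WT cells, and in 28.2% of high and 25.5% of other PD-1-/- cells. Without every cell that held a read of these 3 genes, Ctse stayed above 0 in 38.98% of the remaining WT and 56.2% of the remaining PD-1-/- cells, and its log2 ratio was 2.14.

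S1pr5 encodes a sphingosine-1-phosphate receptor by which mature NK cells leave tissues. High cells made up 18.5% of S1pr5+ and 11.5% of S1pr5- WT cells, 7.05 points apart (-1.12 to 17.4). In PD-1-/- they made up 39.8% of S1pr5+ and 50.2% of S1pr5- cells, -10.4 points apart (-21.4 to 1.35). The shares above 0 were 37.04% and 39.4% in WT, and 53.8% and 59.3% in PD-1-/-. Each interval included 0, and whether the genotypes differed in this respect was not tested. Cells with a read of Pdcd1 were few in WT, 6 of 9 with Ctse, and in PD-1-/- 63.8% of 47 such cells had Ctse against 57.1% of the rest.

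By mean level, the WT groups ran from 26.7 RPKM in Cxcr6+ and 30.9 RPKM in Cd3g+ cells to 81.2 RPKM in S1pr5+ cells, and the PD-1-/- groups from 226.9 RPKM in S1pr5+ and 254.4 RPKM in Cd3g+ cells to 310 RPKM in Cxcr6+ cells. Within a genotype these neighbours had overlapping intervals of the share of high cells. Between genotypes the groups were compared one by one. Among 63 groups of cells, each defined by a read of 1 gene of the lists used here and holding at least 20 cells of both genotypes, the share of high cells was larger in PD-1-/- in 63, with intervals apart in 58. The share of cells above 0 was larger in 61, the exceptions being Ccna2+ cells, with 71.4% in WT and 52.6% in PD-1-/-, and Mcoln1+ cells, with 50% and 45.8%. The share of high cells ran from 6.78% (Asah1+) to 25% (Mcoln1+) in WT and from 37.5% (Mcoln1+) to 62.1% (Top2a+) in PD-1-/-. The log2 ratio of the means ran from 1.05 in Mcoln1+ to 3.49 in Cxcr6+ cells, with a median of 2.21. The groups share cells and are not independent of each other. Some, such as Fcer1g+ and Nkg7+ cells, hold nearly all kept cells of both genotypes. The counts of groups therefore repeat the contrast by which Ctse was chosen and describe it without supporting it. Their intervals cover counting error within 1 pool per genotype.

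**Figure D3:**
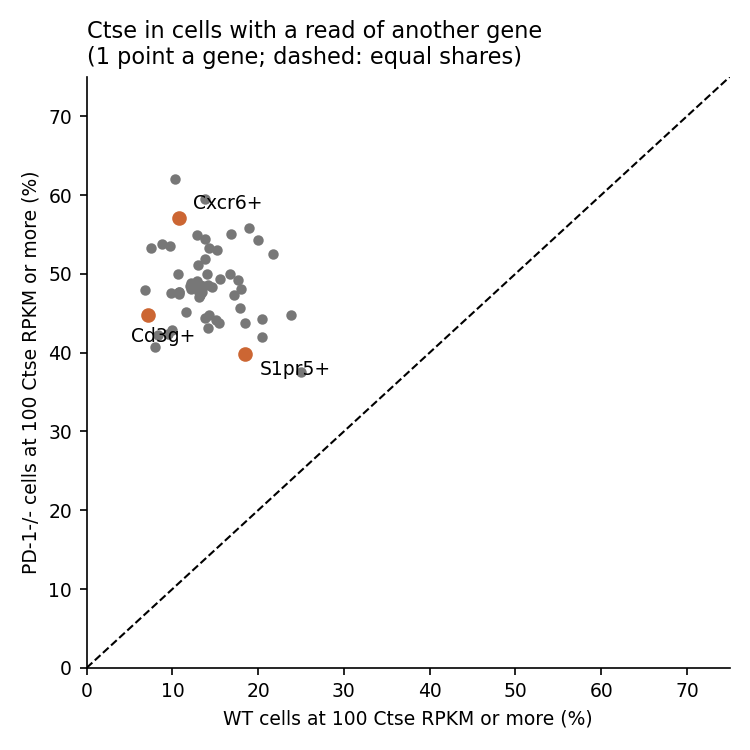
Percent of cells at 100 Ctse RPKM or more in WT (x axis) and PD-1-/- (y axis), 1 point for each of 63 groups of cells that hold a read of a given gene, with Cxcr6+, Cd3g+ and S1pr5+ cells in orange and a dashed line where the genotypes are equal. All points lie above the line, between 6.78% and 25% in WT and between 37.5% and 62.1% in PD-1-/-.

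The other cathepsins did not follow Ctse. Of 18 cathepsin genes, 9 reached 10% of cells in WT or PD-1-/-. The 8 others among these 9 had log2 ratios from -0.95 to 0.28 with a median of -0.11, beside a median of -0.003 over the 7066 genes, and 0 of them passed 2-fold in either direction. Exact intervals of the share of cells were apart between genotypes for Ctse and Ctsz, against 1.61% of all genes. Ctsz (cathepsin Z, a carboxypeptidase) went the other way, found in 31.4% of cells in WT and 19.4% in PD-1-/-, at mean levels of 127.9 and 65.5 RPKM (log2 ratio -0.95).

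The aspartic relative Ctsd had reads in most cells, 93.1% in WT and 95.1% in PD-1-/-, and its mean was 1175 RPKM in the former and 1349 RPKM in the latter (log2 ratio 0.20). Ctsw (cathepsin W, typical of cytotoxic lymphocytes) was the most abundant per length, at 1849 RPKM in WT and 1715 RPKM in PD-1-/- cells. In WT cells the mean of Ctse, 57.4 RPKM, was below those of Ctsa (149.2), Ctss (138.8), Ctsz (127.9), Ctsc (106.7) and Ctsb (80.1) and above that of Ctso (33.1). In PD-1-/- cells its mean of 269.3 RPKM stood behind Ctsd and Ctsw alone among these 9. Ctsl, a cysteine protease at 7.22% of WT and 4.37% of PD-1-/- cells, was not among these 9. Its mean over all cells, which rested on 26 WT and 16 PD-1-/- cells with reads, was 65.5 RPKM in WT, above that of Ctse, and 17.6 RPKM in PD-1-/-, a log2 ratio of -1.84. Ctsj, Ctsm and Ctsq were found in 0 cells, which allows a share of up to 0.833% of WT and 0.820% of PD-1-/- cells if 3 counts of the total are taken as the limit (exact upper limits 1.02% and 1.003%).

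**Figure D4:**
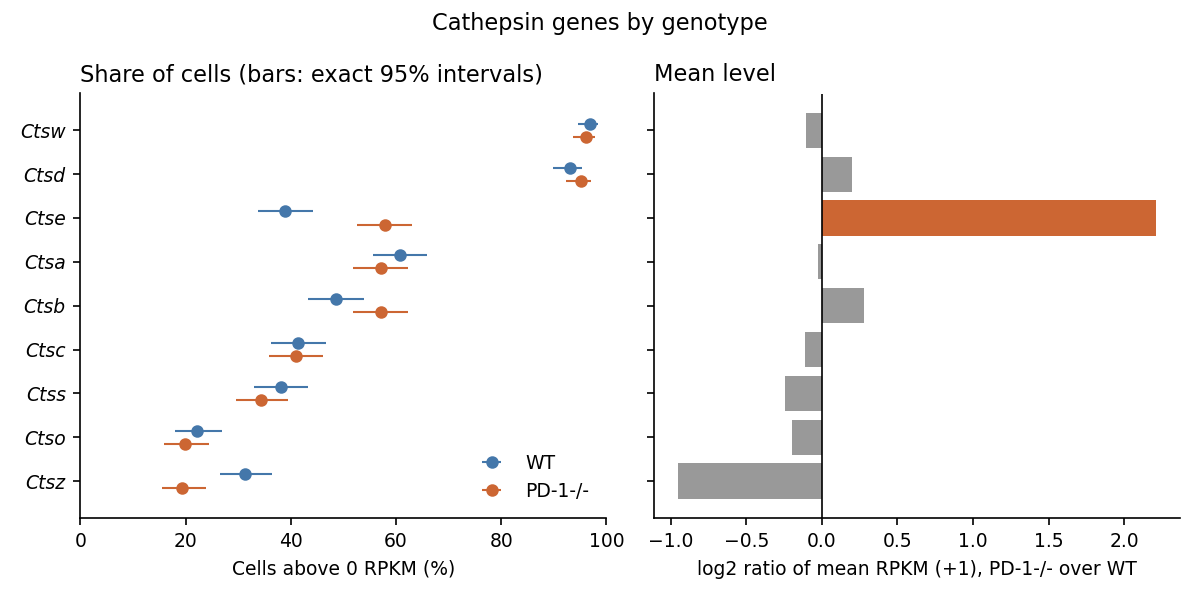
Share of cells above 0 RPKM in percent (left, WT in blue and PD-1-/- in orange, bars are exact 95% intervals) and log2 ratio of the PD-1-/- mean to the WT mean, 1 RPKM added to each (right), for the 9 cathepsin genes that reached 10% of cells in WT or PD-1-/-. Ctse has the highest ratio, 2.21, the other bars run from -0.95 (Ctsz) to 0.28 (Ctsb), and the intervals of the share are apart for Ctse and Ctsz.

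High Ctse cells were also compared with the other cells of their genotype for the remaining cathepsins. Between high and other PD-1-/- cells the interval of the difference in share included 0 for all 8, where 6.77% of all genes had an interval that left out 0, and the Spearman correlation with Ctse over these cells lay between -0.001 and 0.117. In WT, where 5.27% of all genes had such an interval, it left out 0 for Ctss alone, which was found in 53.2% of high and 35.8% of other cells. The correlation lay between -0.044 and 0.120 over the 360 WT cells. These cells share library preparation and differ in depth, so the correlation is given as a description.

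Genes of related function, of NK cells and of other cell types were set beside Ctse in the same way. Of 60 common genes on the lists, the share of cells differed between high and other PD-1-/- cells, with an interval above 0, for 3 (5%), beside the 6.77% of all genes. These were Itgax (CD11c), in 70.1% and 53.1% of cells, Gzmc (granzyme C), in 28.7% and 17.7%, and Ncr1, in 94.8% and 89.1%. In WT the interval left out 0 for 10% of the 60 genes, beside the 5.27% of all genes. Among these, Lamp2, a lysosomal membrane protein gene, was found in 40.4% of high and 23.6% of other WT cells, Psap, which encodes the precursor of the saposins, in 85.1% and 69.6%, and Mcoln1, which encodes a lysosomal cation channel, in 21.3% and 9.58%. Cd69, an early activation antigen, lay below 0, at 21.3% and 36.7%. The WT comparison rests on 47 high cells. Lamp2, Psap and Mcoln1 had no such interval in PD-1-/-, where the 19 common lysosomal genes had differences of -6.41 to 10.1 points with a median of 0.84, beside 1.38 for all genes.

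Genes of MHC class II processing were sparse. The invariant chain gene Cd74 was found in 16.7% of high and 11.98% of other PD-1-/- cells, 4.69 points apart (-2.51 to 12.03). The reductase gene Ifi30 (GILT) was found in 18.97% and 15.1%, and H2-DMa, a chain of the peptide exchange factor H2-DM, in 24.7% and 19.3%. In WT, Ifi30 was found in 6.38% of high and 11.8% of other cells and H2-DMa in 12.8% and 19.8%. Cd74 was found in 14.9% and 9.58% of these WT cells. The interval of each difference included 0 in both genotypes. Only these 3 of the 9 genes on the list reached 10% of cells. Between genotypes these 3 had log2 ratios of 0.03 to 0.49 and the 19 lysosomal genes a median of 0.04. The cystatin-type inhibitors Cst3, Cst7 and Cstb had log2 ratios of -0.24 to -0.04. Among aspartic proteases other than Ctse, Napsa had a log2 ratio of -0.27, while Ren1 and Pgc were again found in 0 cells.

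Ctse is also expressed outside NK cells, so markers of other cells were examined in its high cells. Hbb-b1, a hemoglobin gene of red cells, was found in 0 cells, which allows the shares given above for 0 cells, and erythroid markers in 2.13% of high and 1.28% of other WT cells and in 2.30% and 0% of PD-1-/- cells, where the 4 cells concerned had Alas2, an enzyme gene of heme synthesis (2.30 points, -0.112 to 5.76). Myeloid markers were found in 19.1% of high and 12.1% of other WT cells and in 8.05% and 6.25% of PD-1-/- cells. Lyz2, lysozyme of myeloid cells, was found in 18 WT and 9 PD-1-/- cells. Dendritic cell markers were found in 65.96% of high and 64.9% of other WT cells and in 70.7% and 53.6% of PD-1-/- cells. Of these markers Itgax alone reached 10% of cells, so these shares are mainly its own. It was found in 62.5% of all kept WT and 61.2% of all kept PD-1-/- cells, and each other dendritic cell marker in at most 3.33%. Neutrophil, B cell and fibrosarcoma markers were each found in at most 2.30% of high and 6.71% of other cells of either genotype. The part of such markers in the Ctse values was not tested beyond these shares.

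Over the PD-1-/- cells the genes whose levels ran most like Ctse, among 6716 found in at least 10% of them, were Smndc1 with a Spearman correlation of 0.23, Churc1 and Gramd1a with 0.21, Nr2c2 and Unc119b with 0.20, Gm6623 with 0.19, and Rspry1 and Irak2 with 0.18. At the other end were Tmem251 with -0.22, Ugcg with -0.18, and Il12rb2 and Rab6a with -0.17. The 8 most alike had correlations between -0.07 and 0.11 over WT cells, and 1 in 100 of all genes had a correlation above 0.13 in PD-1-/-. Values this small in sparse single-cell data do not single out a partner of Ctse. The correlation of Ctse with Cxcr6, Cd3g and S1pr5 was 0.07, 0.01 and -0.08.

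Ctse and Pdcd1 lie on the same chromosome, 37.6 Mb apart in GRCm38, so the neighbors of Ctse were listed. Within 10 Mb there were 45 other genes found in at least 10% of cells, 26 higher and 19 lower in PD-1-/-, with a median log2 ratio of 0.04. Their median absolute ratio, 0.20, equalled that of all genes, 0.20. Gpr25 (1.17) and Rnpep (-1.09) passed 2-fold, 1 gene of the 45 in each direction, beside 0.651% of all genes higher and 0.467% lower. The 5 expressed genes before Ctse were Eif2d (0.81), Rassf5 (0.43), Ikbke (-0.22), Srgap2 (0.36) and Fam72a (-1.05, with reads in 1.39% of WT cells), each with its log2 ratio. The 5 after it, Slc41a1, Rab29, Nucks1, Elk4 and Nuak2, had ratios of -0.21 to 0.09. No expressed gene among these 10 came near the ratio of Ctse. The 10 Mb window does not reach Pdcd1, and an effect of position on Ctse was not tested.

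**Figure D5:**
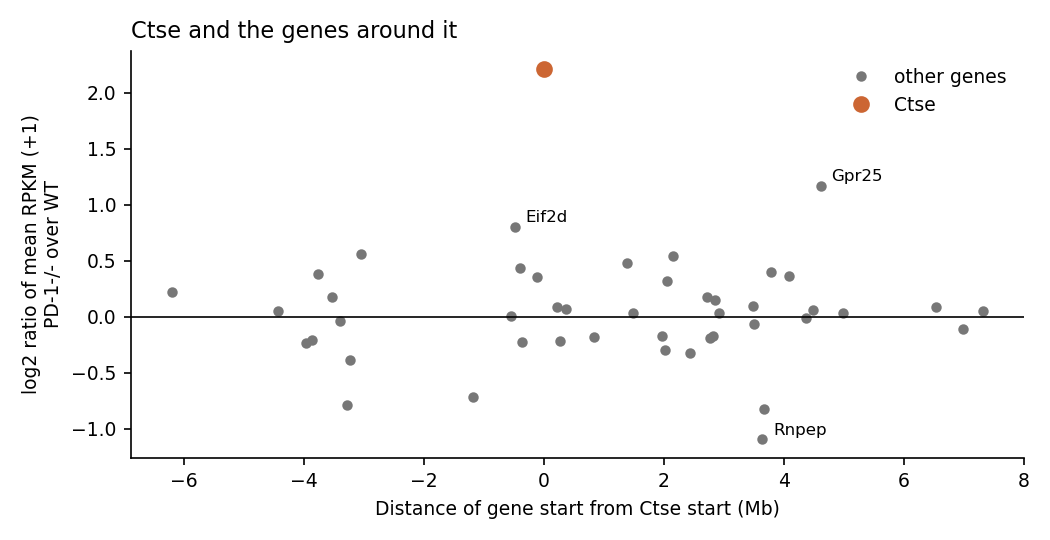
Log2 ratio of the PD-1-/- mean to the WT mean, 1 RPKM added to each (y axis), for common genes by distance of their start from that of Ctse in megabases (x axis). Ctse stands at 2.21 and the 45 other genes lie between -1.09 (Rnpep) and 1.17 (Gpr25).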

How the data were processed

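Single NK cells were processed by SMART-SEQ2, a full-length protocol without molecular identifiers. The authors aligned the reads and deposited RPKM values per gene and well, as 1 table per plate. The labels name TopHat, Cufflinks, mm9 and mm10, without version or role. Ctse, the gene lists and the comparisons were chosen with earlier results of these data known.

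Wells with 1000 to 3500 genes above 0 were kept, counting the 14761 genes found in at least 3 wells. Because RPKM values of a gene are multiples of the worth of 1 read, whole reads were recovered for 9839 genes. Of 675856 values below 60 reads, 99.6% came out whole within a relative tolerance of 0.0003. With 1 pool per genotype no count test was run. Log2 ratios are of mean RPKM plus 1. Shares carry exact Clopper-Pearson and differences of shares Newcombe 95% intervals. In simulated PD-1-/- over WT data with 200 of 3272 genes changed 4-fold, 100% had the right direction.

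Named genes were Ctse, all genes called Cts plus 1 letter, Cxcr6, Cd3g, S1pr5, the members of the lists, the 8 highest and 4 lowest Spearman correlations with Ctse, and the 5 nearest genes on each side of it with a mean of at least 1 RPKM. Ccna2, Gpr25, Rnpep and Mcm6 were named after their values were seen, and the 100 RPKM boundary was also set then. Some members of the lists are not reported here. Alternatives were other thresholds, pseudocounts, plate blocks, well filters, scalings and thinning to 100000 reads. Python 3.11.15, numpy 2.4.6, pandas 2.3.3, scipy 1.17.1, matplotlib 3.10.9 and Biopython 1.88 were used.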

Additional observations from a re-analysis of the deposited data

Results flagged for a closer look

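Ctse was also read in wells outside the comparison, those with fewer than 1000 or more than 3500 genes. It was above 0 in 11 of 18 such wells on the PD-1-/- plate, 61.1% (exact interval 35.7% to 82.7%), against 7 of 24 on the WT plate, 29.2% (12.6% to 51.1%). The PD-1-/- wells with Ctse all had more than 3500 genes, 11 of 14, of which 8 reached 100 RPKM, beside 6 of 16 such WT wells, of which 1 did. In wells under 1000 genes it was above 0 in 1 of 8 on the WT plate and 0 of 4 on the PD-1-/- plate, where 3 counts of the total would allow up to 75% of wells (exact upper limit 60.2%).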

How the results depend on the processing

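No paired analysis was possible because each genotype was 1 pool on 1 plate and the numbers in the sample names count wells. The Cxcr6, Cd3g and S1pr5 differences had intervals that included 0, so they had no set direction to reverse. In WT they changed sign between settings, from -4.34 to 17.05 points for Cxcr6, -11.6 to 18.9 for Cd3g and -5.51 to 7.05 for S1pr5. In PD-1-/- the Cd3g difference did so too (-3.57 to 13.3), while Cxcr6 (7.12 to 12.2) and S1pr5 (-12.2 to -1.81) kept their sign. Ctse stayed higher in PD-1-/- in every alternative of its shares and log2 ratio. A minimum of 10 RPKM gave shares of 29.2% in WT and 52.5% in PD-1-/-, and one of 100 RPKM, chosen after seeing the data, 13.1% and 47.5%. The PD-1-/- share was 52.2% in columns 1 to 12 and 63.7% in columns 13 to 24. Its log2 ratio came to 1.84 for rows A to H, 2.68 for rows I to P, 1.65 over cells above 0 and 2.51 as a difference of mean log2(RPKM + 1). It was 2.26 on mean reads after thinning to 100000 reads, which left out 22 WT and 14 PD-1-/- cells and used no pseudocount. The Cd3g difference in WT was 18.9 points in columns 13 to 24. In rows I to P 5 of the 9 common cathepsins were higher in PD-1-/-, beside 3 over all rows. By the phi coefficient of detection 3 of the 8 genes most like Ctse were shared. The cause was not tested for any of these. Shares of Ctse+ cells in shallow wells are limited by depth, and no alternative separates genotype from plate.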
